A study of Homo sapiens with 6 samples.

Results

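Antisense long non-coding RNA genes are transcribed from the strand opposite to another gene, and most are named after that gene with the ending -AS1, -AS2 or -AS3. Of 58735 genes in the expression table of HGC27 cells, 1803 carried such a name, and the 269 with a mean of at least 1 FPKM over the 6 libraries are described here. FPKM, fragments the fragment number scaled by exon length and library size, is a level that allows genes to be compared. The members were therefore chosen by their level, which is given below as a description. HGC27 is an established human gastric cancer cell line, and no other line was sequenced. The tested libraries came from 3 samples given 0.125 µM ARV-825 for 48 h, and the control libraries from 3 samples at 0 µM, which the labels call untreated and the study's methods describe as given dimethyl sulfoxide. All 6 samples shared the same line, with no engineered allele and no second agent stated. ARV-825 is a proteolysis-targeting chimera that joins a ligand of the BET bromodomain proteins to a ligand of the E3 ligase receptor cereblon, so that the BET proteins are ubiquitinated and degraded. Each antisense gene was compared between ARV-825 treated and control cells and set beside the protein-coding gene it is named after, called its partner.

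As background, BET proteins bind acetylated histones at promoters and enhancers and help RNA polymerase II to leave its pause near the start of genes. Many antisense RNAs start in the open promoter of their partner and run away from it, an arrangement called head to head, while others start inside the partner and run back across its exons or introns. Single antisense RNAs are known to act on the neighbouring gene in cis, to bind proteins or microRNAs, or to be byproducts of an active promoter. Many are unstable in the nucleus, where the RNA exosome degrades them, and the Integrator complex ends the transcription of many of them early.

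The libraries held 14821971 to 15201942 fragments in genes in ARV-825 treated cells and 16626609 to 19145661 fragments in control cells. Mitochondrial genes took 9.84% to 11.97% of fragments in ARV-825 treated cells and 5.62% to 6.24% in control cells, and the FPKM of all genes summed to 348808 to 360662 in ARV-825 treated cells and 282667 to 294346 in control cells. The part of these differences in the results below was not tested beyond the rescaled values that are given beside them. Markers of gastric epithelium were near 0, since none of 5 epithelial markers and none of 6 gastric mucosa markers reached a mean of 1 FPKM, and the summed epithelial level was 0.549 to 0.738 FPKM in ARV-825 treated cells and 0 to 0.120 FPKM in control cells. The mesenchymal markers summed to 254 to 258 FPKM in ARV-825 treated cells and 278 to 290 FPKM in control cells, and the fibroblast markers *COL1A1*, *DCN* and *LUM* to 82.1 to 83.8 FPKM and 230 to 232 FPKM in these groups. The 4 immune and 2 endothelial markers were below a mean of 1 FPKM.

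Most antisense genes were scarcely detected in these cells. Of the 1803, 445 were at 0 in every library, 510 had a mean above 0 and under 0.1 FPKM, and 579 lay between 0.1 and 1 FPKM. Among the 269 members, 194 lay between 1 and 3 FPKM, 67 between 3 and 10 FPKM and 8 at 10 FPKM or more, with a median of 1.96 FPKM against 5.48 FPKM over the 13442 genes of any class that reached the same mean. The filter on the mean admitted genes through either group: 174 members averaged at least 1 FPKM in both groups, 69 did so only in ARV-825 treated cells and 26 only in control cells. *NUTM2B-AS1* at 0.994 FPKM, *CSNK1G2-AS1* at 0.993 FPKM and *NDUFV2-AS1* at 0.988 FPKM lay just outside the threshold, and *IGBP1-AS1* at 1.00 FPKM, *EMC1-AS1* at 1.00 FPKM and *UBE2R2-AS1* at 1.02 FPKM just inside it. Of the genes left outside, 52 averaged at least 1 FPKM in ARV-825 treated cells and 27 in control cells. Together the members made up 0.227% to 0.238% of fragments in ARV-825 treated cells and 0.168% to 0.174% in control cells, and the groups did not overlap.

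In the GENCODE 29 annotation of the GRCh38 genome, 217 members had the class antisense, 23 were lincRNAs and 22 processed transcripts. A protein-coding partner was found for 264 members, 134 of which were head to head with it, meaning a start on the opposite strand within 1000 bases of an annotated start of the partner, from which both run apart, and nearly all others overlapped it in another way. Of all members, 196 had a lower mean FPKM than their partner. The library kit named in the labels does not mark strand, so that reads from exon bases which an antisense gene shares with a gene on the other strand cannot be told apart. Such bases were present in 205 members and made up at least 25% of the exon length in 68 and at least 50% in 11. The share is given below for members where a statement turns on it.

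More antisense RNAs rose than fell after ARV-825. Past an absolute log2 fold change of 1 and an adjusted p of 0.05 in limma, 57 members were higher in ARV-825 treated cells, 21.2% of the 269, against 8.81% of all 13442 genes tested. In the other direction 19 members were lower, 7.06% against 12.1% of all genes. By the adjusted p alone 151 members were higher (37.0% of all genes were) and 62 lower (40.2% of all genes), and 56 passed in neither direction. The values of the groups did not overlap in 156 members with ARV-825 above (38.5% of all genes) and 61 with ARV-825 below (41.6% of all genes), for which an exact two-sided permutation test of 3 against 3 libraries gives the smallest p it allows, 0.1. The median log2 fold change, on the log2(FPKM + 1) scale that understates changes of low genes, was 0.44 over the members and -0.02 over all genes.

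Restricted to genes with a mean of at least 1 FPKM in each group, 28 of 174 members were higher and 7 lower, beside 673 and 1188 of all 11554 such genes. Among the 75 members with an overall mean of at least 3 FPKM, 22 were higher and 7 lower, beside 695 and 1162 of 9149 genes. Sorted by control level, 29 of 69 members under 1 FPKM in control cells were higher, 42.0% beside 51.0% of all genes of that level, a direction that the filter fixes. At 1 to 3 FPKM in control cells 20 of 133 were higher and 5 lower, 15.0% and 3.76% beside 9.02% and 6.30% of all genes of that level, with a median log2 fold change of 0.24 beside 0.07 for those genes. At 3 to 10 FPKM 8 of 63 were higher and 13 lower, 12.7% and 20.6% beside 5.12% and 14.3%, with a median of -0.10 beside -0.08. When all libraries were rescaled to the same sum (TPM), which moved the median of all genes to -0.31, 59 members passed upward and 40 downward, which made 59.6% of the called members higher instead of 75%, and for all genes 26.4% instead of 42.1%.

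Other non-coding classes are given side by side. Of 115 genes whose symbol starts with LINC, 26 were higher and 5 lower, 22.6% and 4.35%. The 929 remaining long non-coding genes had 211 higher and 62 lower, 22.7% and 6.67%. The shares of the antisense genes, 21.2% and 7.06%, were close to those of both classes, so the rise was not particular to antisense genes. The 24 snoRNA host genes of the SNHG series had 0 higher and 5 lower at both thresholds in limma, with 2 higher and 14 lower at the adjusted p alone. Protein-coding genes showed 593 higher and 1441 lower of 10590, and the 230 partners that could be tested 14 higher and 20 lower.

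**Figure D1:**
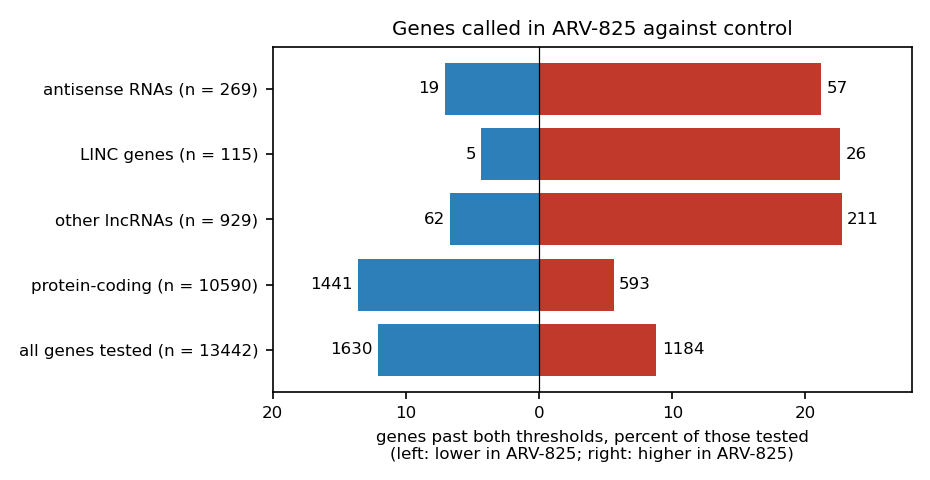
Share of genes past both thresholds (log2 fold change and limma adjusted p) in each class, in percent of the genes tested, to the right for genes higher in ARV-825 treated cells and to the left for genes lower in ARV-825 treated cells, with the number of genes at each bar. The antisense bar reaches 21.2% on the right and 7.06% on the left, and the bar of all genes 8.81% and 12.1%.

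The largest increases and decreases were picked for their size and for groups that do not overlap. Those with a mean under 1 FPKM in either group passed the filter only through the other group, which fixes their direction. Among the largest increases these were *UBAC2-AS1*, *TMEM9B-AS1*, *HM13-AS1*, *ADAMTSL4-AS1*, *ADAMTSL4-AS2*, *HEXIM2-AS1* and *CD44-AS1*. Among the largest decreases they were *MNX1-AS1*, *MNX1-AS2*, *PRKAG2-AS1*, *LOXL1-AS1*, *C10orf95-AS1*, *MELTF-AS1*, *FOXO6-AS1*, *PRKCQ-AS1* and *CAMK2G-AS1*. *NARF-AS2* (chromosome 17, 82454273 to 82458521, minus strand, GRCh38), head to head with the prelamin-binding factor gene *NARF*, had 14.6, 17.5 and 13.9 FPKM in ARV-825 treated cells, against 2.20, 1.53 and 0.652 FPKM in control cells. The groups were far apart, with a log2 fold change of 2.78 ± 0.23 (SE, n = 3 each, limma adjusted p = 3.24e-05), and 22.1% of its exon bases were shared with *NARF*. *NARF* itself changed less, with a log2 fold change of 0.90 ± 0.06, so that the antisense RNA stood at 1.29, 1.77 and 1.40 times the FPKM of *NARF* in ARV-825 treated cells, against 0.444, 0.284 and 0.130 times in control cells.

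*RUFY1-AS1*, which overlaps the endosomal protein gene *RUFY1*, had 9.84, 10.4 and 11.1 FPKM in ARV-825 treated cells, against 1.22, 1.68 and 1.46 FPKM in control cells, a log2 fold change of 2.22 ± 0.08. *RUFY1* had a log2 fold change of 0.57 ± 0.05. Both increases passed the adjusted p, and all ARV-825 values of the antisense RNA lay above all control values. *UBAC2-AS1*, head to head with *UBAC2*, a gene for a membrane protein of the endoplasmic reticulum, had 4.14, 4.88 and 4.40 FPKM in ARV-825 treated cells, against 0.504, 0.590 and 0.671 FPKM in control cells. It shared no exon base with a gene on the other strand, and *UBAC2* had a log2 fold change of 0.12 ± 0.07 (limma adjusted p = 0.143), so that the increase stood in the antisense RNA without one past the threshold in its partner.

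The remaining large increases came with partners that differed in their own change. *TMEM9B-AS1* averaged 4.71 ± 0.71 FPKM in ARV-825 treated cells and 0.675 ± 0.283 FPKM in control cells (SD, n = 3 each), and its head-to-head partner *TMEM9B* 9.41 ± 1.00 and 4.87 ± 0.20 FPKM in these groups. *TMEM44-AS1* averaged 13.4 ± 1.9 FPKM in ARV-825 treated cells and 3.48 ± 0.22 FPKM in control cells, while *TMEM44* had 3.10 ± 0.04 and 3.36 ± 0.12 FPKM (limma adjusted p = 0.131). *HM13-AS1*, within the signal peptide peptidase gene *HM13*, averaged 3.79 ± 0.22 FPKM in ARV-825 treated cells and 0.534 ± 0.452 FPKM in control cells. Of the exon bases of *HM13-AS1*, 49.5% were shared with *HM13*, whose log2 fold change was 0.20 ± 0.05, and its control libraries held 1 to 10 fragments.

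**Figure D2:**
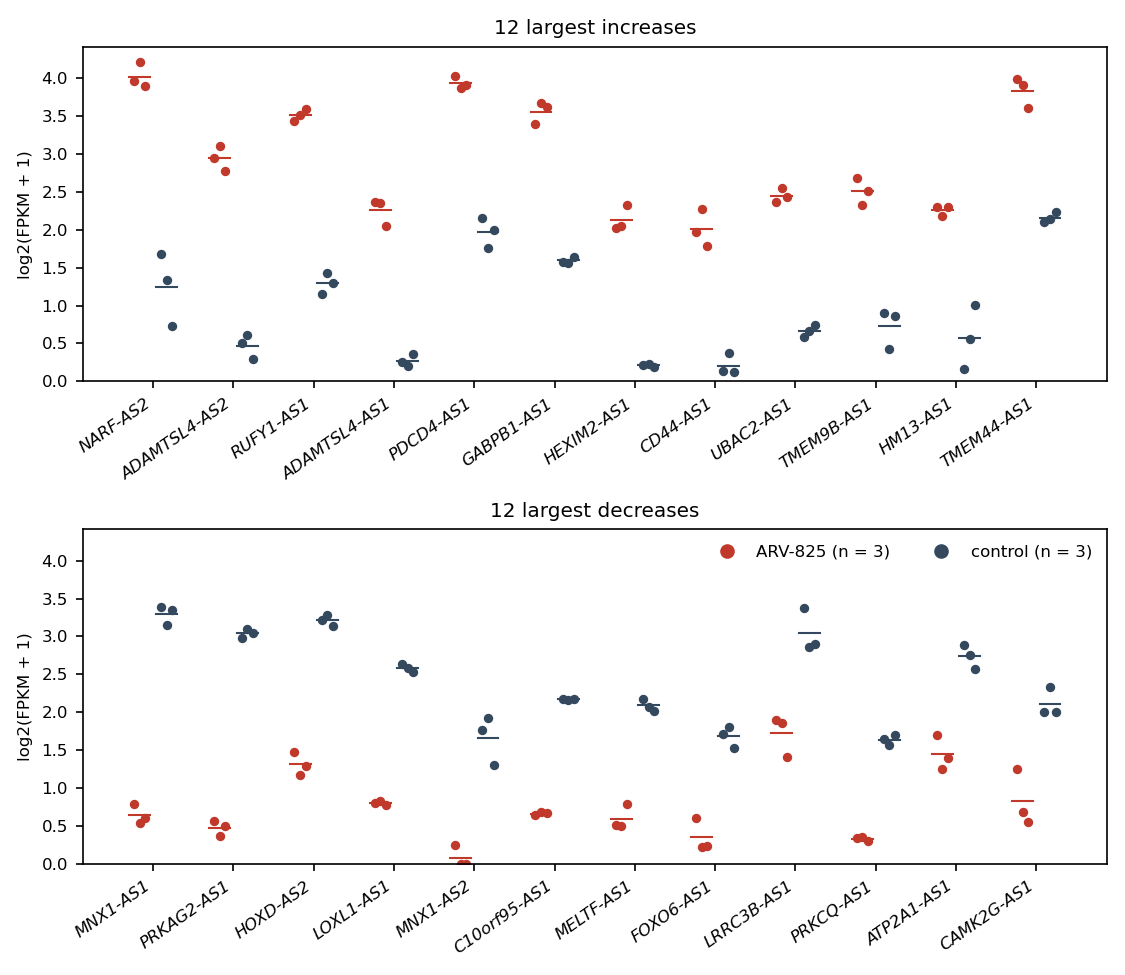
Level of the 12 antisense RNAs with the largest increase (upper) and the 12 with the largest decrease (lower) past both thresholds, as log2(FPKM + 1), with 1 point per library and a line at the group mean (n = 3 each; ARV-825 in red, control in dark blue). The ARV-825 points and the control points do not overlap in these genes because the rule that chose them required it.

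Some antisense RNAs and partners moved together. Antisense RNA and partner passed both thresholds in the same direction in 15 of the 232 pairs whose partner was tested. In 8 of them both were higher and in 7 both lower, and 1 further pair passed in opposite directions. Both genes of the *PRKCQ* and *ADAMTSL4* pairs passed the filter only through the same group, which fixes a shared direction. *MNX1-AS1* had the lowest log2 fold change of the members on the log2(FPKM + 1) scale. It lies head to head with *MNX1*, a homeobox transcription factor gene of motor neurons and pancreas, with starts 154 bases apart on chromosome 7 (157010805 to 157016426, plus strand, GRCh38). *MNX1-AS1* had 0.725, 0.447 and 0.525 FPKM in ARV-825 treated cells, against 9.43, 7.92 and 9.23 FPKM in control cells, a log2 fold change of -2.66 ± 0.09 (SE, limma adjusted p = 7.07e-07) and a 15.7-fold lower mean. *MNX1* had 1.27, 1.55 and 1.43 FPKM in ARV-825 treated cells, against 6.60, 6.75 and 6.49 FPKM in control cells, a log2 fold change of -1.66 ± 0.06. The antisense RNA thus fell further than its partner, since it stood at 0.569, 0.288 and 0.367 times the FPKM of *MNX1* in ARV-825 treated cells, against 1.43, 1.17 and 1.42 times in control cells. A second antisense gene of the locus, *MNX1-AS2*, had 0.183, 0 and 0 FPKM in ARV-825 treated cells, at most 1 fragment, against 2.39, 2.80 and 1.46 FPKM in control cells. Neither antisense gene shared an exon base with the opposite strand.

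*LOXL1-AS1* lies head to head with *LOXL1*, which encodes a lysyl oxidase that crosslinks elastin, on chromosome 15 (73908071 to 73928248, minus strand). It had 0.747, 0.772 and 0.712 FPKM in ARV-825 treated cells, against 5.23, 5.00 and 4.77 FPKM in control cells, a 6.72-fold lower mean with a log2 fold change of -1.78 ± 0.06. *LOXL1* averaged 19.2 ± 1.8 FPKM in ARV-825 treated cells and 39.4 ± 0.5 FPKM in control cells (SD, n = 3 each), so that the partner fell less. Of the exon bases of *LOXL1-AS1*, 7.94% were shared with *LOXL1*.

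*ADAMTSL4*, which encodes a secreted fibrillin-binding protein, is overlapped by both of its antisense genes, and all 3 genes rose together. *ADAMTSL4-AS2*, head to head with one of its starts, 530 bases away, on chromosome 1 (150548562 to 150557724, minus strand), had 6.70, 7.60 and 5.86 FPKM in ARV-825 treated cells, against 0.419, 0.524 and 0.224 FPKM in control cells (3 to 6 fragments). *ADAMTSL4-AS1* had 4.16, 4.11 and 3.15 FPKM in ARV-825 treated cells, against 0.191, 0.155 and 0.283 FPKM in control cells. *ADAMTSL4* had 6.86, 6.05 and 5.91 FPKM in ARV-825 treated cells, against 0.321, 0.397 and 0.431 FPKM in control cells. The log2 fold changes were 2.47 ± 0.12 for *ADAMTSL4-AS2*, 1.98 ± 0.11 for *ADAMTSL4-AS1* and 2.39 ± 0.07 for *ADAMTSL4*, and the ratio of either antisense RNA to *ADAMTSL4* overlapped between the groups. *ADAMTSL4-AS2* shared 28.4% of its exon bases with *ADAMTSL4* and *ADAMTSL4-AS1* 28.1%, and reads from those bases cannot be told apart.

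*PDCD4-AS1* and *PDCD4*, an inhibitor of the translation factor eIF4A, were raised without any shared exon base. *PDCD4-AS1* had 15.3, 13.7 and 14.1 FPKM in ARV-825 treated cells, against 3.44, 2.39 and 2.99 FPKM in control cells, and *PDCD4* averaged 30.3 ± 1.5 FPKM in ARV-825 treated cells and 8.69 ± 0.27 FPKM in control cells. The log2 fold changes of 1.97 ± 0.10 and 1.69 ± 0.05 were close, and the ratio was 1.40 times as high in ARV-825 treated as in control cells. *CD44-AS1*, inside the hyaluronan receptor gene *CD44*, had 2.92, 3.85 and 2.44 FPKM in ARV-825 treated cells, against 0.0950, 0.297 and 0.0844 FPKM in control cells, which rest on 1 to 3 fragments. *CD44* averaged 13.7 ± 0.2 FPKM in ARV-825 treated cells and 5.19 ± 0.16 FPKM in control cells.

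*HEXIM2-AS1* runs across *HEXIM1* and away from *HEXIM2*, the genes of both HEXIM proteins, which hold the elongation kinase P-TEFb inactive together with 7SK RNA, on chromosome 17 (45150400 to 45161510, minus strand). It had 3.05, 3.15 and 4.03 FPKM in ARV-825 treated cells, against 0.160, 0.167 and 0.142 FPKM in control cells, where each library held 2 fragments. Its head-to-head partner *HEXIM2* averaged 4.86 ± 0.27 FPKM in ARV-825 treated cells and 1.36 ± 0.19 FPKM in control cells. *HEXIM2-AS1* shared no exon base with *HEXIM2* but 74.7% of its exon bases with *HEXIM1* on the other strand, whose level was 32.4 ± 1.0 FPKM in ARV-825 treated cells and 23.7 ± 0.6 FPKM in control cells. *HEXIM1* changed less, with a log2 fold change of 0.44.

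The lower pairs included *PRKCQ-AS1*, with 0.264, 0.273 and 0.228 FPKM in ARV-825 treated cells, against 2.12, 1.96 and 2.25 FPKM in control cells. Its head-to-head partner *PRKCQ*, encoding protein kinase C theta, averaged 0.343 ± 0.063 FPKM in ARV-825 treated cells and 2.60 ± 0.04 FPKM in control cells. No exon base was shared, and the ratio of this pair overlapped between the groups. *LRRC3B-AS1* averaged 2.34 ± 0.59 FPKM in ARV-825 treated cells and 7.35 ± 1.73 FPKM in control cells, and its partner *LRRC3B*, encoding a leucine-rich repeat membrane protein, fell further, to 1.01 ± 0.31 FPKM against 7.86 ± 0.07 FPKM. *FOXO6-AS1* had 0.522, 0.169 and 0.173 FPKM in ARV-825 treated cells (1 to 3 fragments), against 2.27, 2.51 and 1.89 FPKM in control cells, beside the forkhead factor gene *FOXO6* at 4.56 ± 0.86 and 19.2 ± 0.05 FPKM in these groups.

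The promoter sequences of head-to-head pairs are shown here because the start of the antisense RNA and a start of its partner lie close together. Each line gives up to 300 bases around the RefSeq start of the antisense gene (GRCh38.p14), on the strand of the antisense gene and without exon bases of the partner, and capitals mark a GC box (GGGCGG) or a CCAAT box (CCAAT) on either strand, motifs that were chosen with the results known. The first 2 antisense RNAs fell with their partners and the next 2 rose with them.
MNX1-AS1 (chr7:157010652-157010906, plus strand): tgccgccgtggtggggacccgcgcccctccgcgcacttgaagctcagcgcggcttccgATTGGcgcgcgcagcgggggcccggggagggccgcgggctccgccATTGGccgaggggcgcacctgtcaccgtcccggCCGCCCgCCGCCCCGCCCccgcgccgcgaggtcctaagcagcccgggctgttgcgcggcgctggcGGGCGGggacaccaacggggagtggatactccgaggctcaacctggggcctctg
LOXL1-AS1 (chr15:73928199-73928498, minus strand): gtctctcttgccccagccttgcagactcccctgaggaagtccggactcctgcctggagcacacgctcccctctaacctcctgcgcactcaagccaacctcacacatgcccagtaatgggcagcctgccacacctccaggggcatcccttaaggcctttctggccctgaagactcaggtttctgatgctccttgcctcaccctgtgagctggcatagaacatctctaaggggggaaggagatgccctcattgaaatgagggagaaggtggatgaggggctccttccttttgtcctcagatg
ADAMTSL4-AS2 (chr1:150557675-150557944, minus strand): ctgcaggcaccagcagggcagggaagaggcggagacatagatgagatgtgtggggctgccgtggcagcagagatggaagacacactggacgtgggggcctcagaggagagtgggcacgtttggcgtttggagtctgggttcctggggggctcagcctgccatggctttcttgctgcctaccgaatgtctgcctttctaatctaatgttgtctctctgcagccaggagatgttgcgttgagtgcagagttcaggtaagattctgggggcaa
HEXIM2-AS1 (chr17:45161489-45161788, minus strand): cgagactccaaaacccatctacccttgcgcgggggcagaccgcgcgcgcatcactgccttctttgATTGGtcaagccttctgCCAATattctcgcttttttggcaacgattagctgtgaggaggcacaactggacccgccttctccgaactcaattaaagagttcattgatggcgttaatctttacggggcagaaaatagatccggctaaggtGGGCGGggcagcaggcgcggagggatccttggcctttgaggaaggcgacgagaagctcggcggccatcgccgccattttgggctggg
The stretch of *MNX1-AS1* held 4 GC boxes, 1 overlapping its neighbour by a base, and 2 CCAAT boxes, that of *HEXIM2-AS1* 1 GC box and 2 CCAAT boxes, and those of *LOXL1-AS1* and *ADAMTSL4-AS2* neither motif. Pairs that moved in the same direction therefore differed widely in these letters.

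Other antisense RNAs parted from their partner. Of 232 pairs whose partner was tested, the log2 fold changes had the same sign in 155 (66.8%) and opposite signs in 77, and the same-sign share was 58.2% after rescaling to TPM. Where both passed the adjusted p, 150 pairs in all, both were higher in 75, both lower in 28, the antisense RNA higher and the partner lower in 34, and the antisense RNA lower and the partner higher in 13. Across the 232 pairs, which share libraries and often exon bases, Spearman's rho was 0.38 and Pearson's r 0.46. For 983 pairs of protein-coding genes that are head to head the signs matched in 52.5% and rho was 0.11. Among the 67 pairs with no exon base in common 43 had the same sign, 64.2%, and rho was 0.38.

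The single pair past both thresholds in opposite directions was *PSMG3-AS1* and *PSMG3*, a proteasome assembly chaperone gene, whose starts lie 28 bases apart on chromosome 7. *PSMG3-AS1* had 3.94, 3.80 and 3.57 FPKM in ARV-825 treated cells, against 1.08, 1.01 and 1.04 FPKM in control cells, a log2 fold change of 1.22 ± 0.06. *PSMG3* had 13.1, 13.5 and 12.9 FPKM in ARV-825 treated cells, against 37.8, 38.8 and 34.4 FPKM in control cells, a log2 fold change of -1.42 ± 0.05. The groups of both genes were apart in opposite directions, the shared exon bases were 0.944%, and the ratio of antisense RNA to partner was 10.1 times as high in ARV-825 treated as in control cells.

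*GABPB1-AS1* and *GABPB1*, which encodes a subunit of the ETS-family GA-binding protein, exchanged their order. *GABPB1-AS1* had 9.50, 11.7 and 11.3 FPKM in ARV-825 treated cells, against 1.98, 1.96 and 2.13 FPKM in control cells (log2 fold change 1.96 ± 0.08). *GABPB1* had 3.42, 3.63 and 4.03 FPKM in ARV-825 treated cells, against 7.66, 7.19 and 7.02 FPKM in control cells (log2 fold change -0.82 ± 0.06). The antisense RNA was thus above its partner in every ARV-825 library, at 2.78, 3.23 and 2.80 times its FPKM, and below it in every control library, at 0.258, 0.273 and 0.304 times.

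*ATP2A1-AS1*, head to head with the calcium pump gene *ATP2A1*, went the other way. It had 2.24, 1.37 and 1.64 FPKM in ARV-825 treated cells, against 6.41, 5.78 and 4.93 FPKM in control cells (log2 fold change -1.29 ± 0.13). *ATP2A1* had 2.56, 2.07 and 2.80 FPKM in ARV-825 treated cells, against 0.985, 0.861 and 1.09 FPKM in control cells (log2 fold change 0.81 ± 0.10). The antisense RNA lay below *ATP2A1* in all ARV-825 libraries and above it in all control libraries, although 42.2% of its exon bases were shared with *ATP2A1*. *VPS9D1-AS1* and *VPS9D1* had the same pattern, with 9.19, 8.23 and 7.80 FPKM of the antisense RNA in ARV-825 treated cells, against 15.4, 14.7 and 17.2 FPKM in control cells. *VPS9D1* averaged 9.39 ± 0.45 FPKM in ARV-825 treated cells and 5.00 ± 0.39 FPKM in control cells, and the log2 fold changes of -0.83 ± 0.08 and 0.79 ± 0.06 passed the adjusted p, with 29.5% of the exon bases of *VPS9D1-AS1* shared.

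The promoter stretches of these diverging pairs, printed under the same rules, were as follows. The start of *GABPB1-AS1* used by RefSeq lies 785 bases from the nearest GENCODE 29 start. Its window ends before the GENCODE 29 gene begins at 50354959, so it does not hold the annotated starts that make this pair head to head.
GABPB1-AS1 (chr15:50353924-50354223, plus strand): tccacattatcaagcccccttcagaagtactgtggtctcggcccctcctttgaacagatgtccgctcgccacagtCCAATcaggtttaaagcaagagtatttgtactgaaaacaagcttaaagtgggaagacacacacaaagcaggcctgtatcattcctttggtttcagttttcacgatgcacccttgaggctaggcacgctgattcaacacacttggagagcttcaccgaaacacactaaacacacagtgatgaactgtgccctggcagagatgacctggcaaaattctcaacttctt
ATP2A1-AS1 (chr16:28879872-28880052, minus strand): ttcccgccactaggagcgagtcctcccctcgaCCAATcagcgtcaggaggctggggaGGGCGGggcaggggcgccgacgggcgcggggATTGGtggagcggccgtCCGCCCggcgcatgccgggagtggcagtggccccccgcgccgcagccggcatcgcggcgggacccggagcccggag
The stretch of *ATP2A1-AS1* held 2 GC boxes and 2 CCAAT boxes and that of *GABPB1-AS1* 1 CCAAT box.

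**Figure D3:**
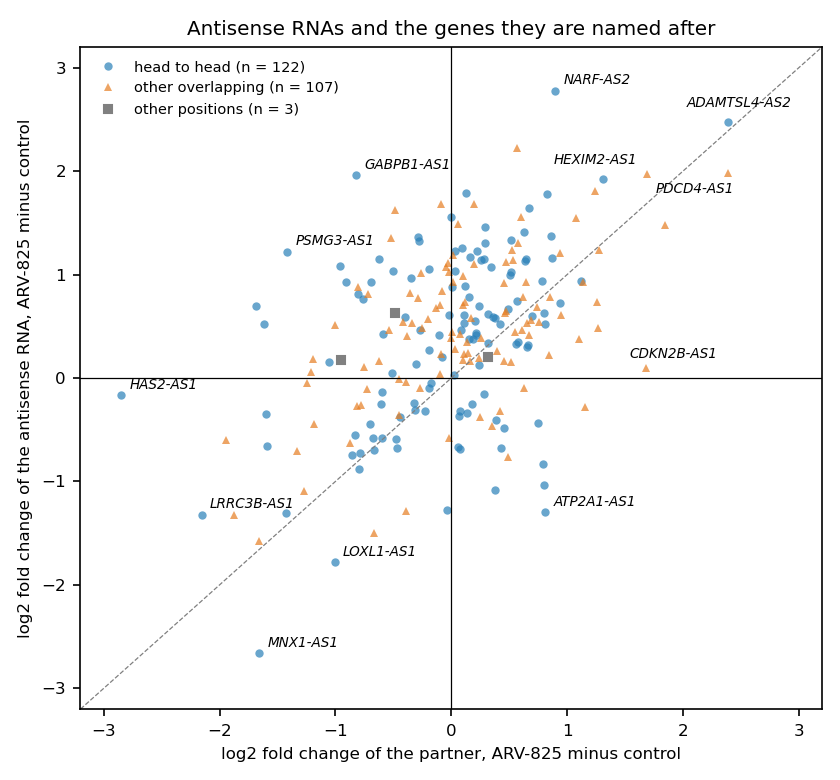
Log2 fold change (ARV-825 minus control, on log2(FPKM + 1)) of each antisense RNA on the vertical axis against that of its partner on the horizontal axis, for the 232 pairs whose partner was tested, by position; the dashed line marks equal change. *MNX1-AS1* lies at the lower left at -2.66 and -1.66, *ADAMTSL4-AS2* at the upper right at 2.47 and 2.39, and *PSMG3-AS1* at the upper left at 1.22 and -1.42.

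The FPKM ratio of an antisense RNA to its partner does not depend on how a library is scaled. Over the 232 pairs this ratio was above the control range in all ARV-825 libraries in 126, below it in 40 and overlapped in 66, and its median was 1.47 times as high in ARV-825 treated as in control cells. For head-to-head protein-coding pairs the ratios of the groups did not overlap in 83.8%. The antisense RNA stayed below its partner in every library in 169 pairs and above it in every library in 14.

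**Figure D4:**
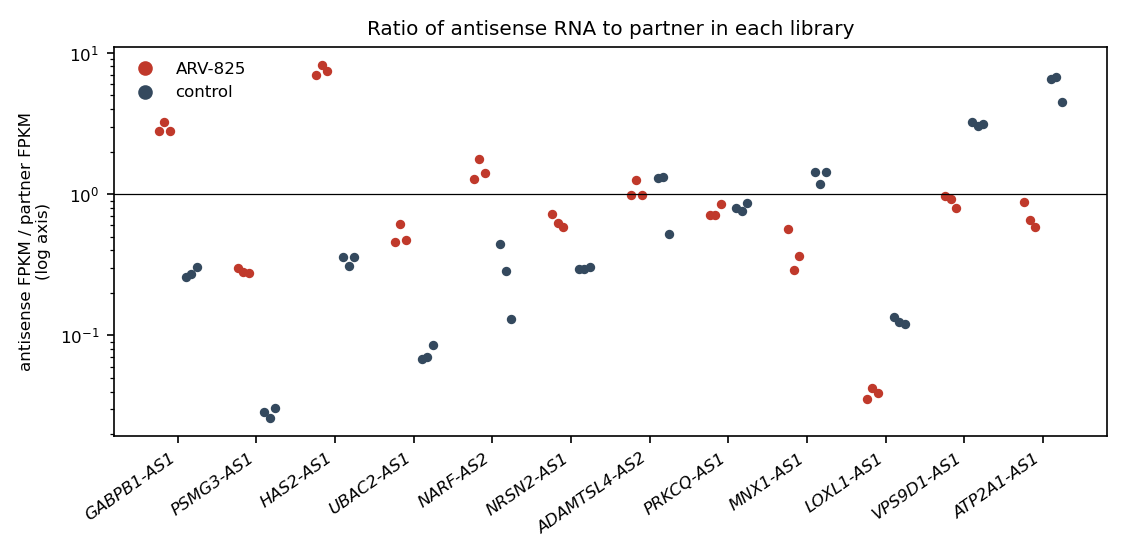
FPKM of an antisense RNA divided by that of its partner in each library, on a log axis, for 12 pairs described in the text (1 point per library; ARV-825 in red left, control in dark blue right; the line marks a ratio of 1). *GABPB1-AS1* lies at 2.78 to 3.23 in ARV-825 treated cells and 0.258 to 0.304 in control cells, and *ATP2A1-AS1* at 0.586 to 0.874 in ARV-825 treated cells and 4.52 to 6.71 in control cells.

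Some partners were too low to be tested, or the antisense gene is named after a gene cluster. *PRKAG2-AS1*, head to head with the gene of an AMP-activated kinase subunit, had 0.472, 0.286 and 0.411 FPKM in ARV-825 treated cells, against 6.86, 7.54 and 7.28 FPKM in control cells, an 18.5-fold lower mean with a log2 fold change of -2.57 ± 0.07 (limma adjusted p = 3.54e-07). *PRKAG2* averaged 0.457 ± 0.106 FPKM in ARV-825 treated cells and 1.47 ± 0.13 FPKM in control cells and did not pass the filter. *C10orf95-AS1* had 0.557, 0.599 and 0.592 FPKM in ARV-825 treated cells, against 3.51, 3.47 and 3.51 FPKM in control cells, and *C10orf95* was below 1 FPKM in every library. In both pairs the antisense RNA was the more abundant transcript in all control libraries.

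The antisense genes of the HOX clusters, which hold the homeobox genes of the body axis, were lower by the adjusted p in 4 of 4. Among all genes 40.2% were lower, and 2 of the 4 calls did not hold without single libraries. *HOXC-AS2* and *HOXC-AS1* averaged under 1 FPKM in ARV-825 treated cells and passed the filter only through control cells, which fixes their direction. *HOXD-AS2* had 1.78, 1.26 and 1.43 FPKM in ARV-825 treated cells, against 8.28, 8.78 and 7.84 FPKM in control cells, a log2 fold change of -1.91 ± 0.09. It shared 26.5% of its exon bases with the opposite strand, where *HOXD3* averaged 0.0445 FPKM in ARV-825 treated cells and 0.364 FPKM in control cells. *HOXC-AS2* averaged 0.734 ± 0.050 FPKM in ARV-825 treated cells and 2.18 ± 0.38 FPKM in control cells (log2 fold change -0.87 ± 0.10), and *HOXC-AS1* 0.685 ± 0.218 and 1.51 ± 0.47 FPKM in these groups (log2 fold change -0.57 ± 0.17, limma adjusted p = 0.0185). *HOXB-AS3* averaged 1.08 ± 0.28 FPKM in ARV-825 treated cells and 1.64 ± 0.09 FPKM in control cells (log2 fold change -0.36 ± 0.11, limma adjusted p = 0.0193), with 30.1% of its exon bases shared. The calls of *HOXC-AS1* and *HOXB-AS3* were lost when single libraries were left out, with limma adjusted p of 0.0603 and 0.0583 without control replicate 1.

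The remaining large decreases were *MELTF-AS1*, overlapping the melanotransferrin gene, and *CAMK2G-AS1*, within the gene of a calcium/calmodulin-dependent kinase subunit. *MELTF-AS1* averaged 0.517 ± 0.176 FPKM in ARV-825 treated cells and 3.26 ± 0.24 FPKM in control cells, while *MELTF* averaged 1.95 ± 0.21 and 3.67 ± 0.21 FPKM. *CAMK2G-AS1* had 1.39, 0.598 and 0.461 FPKM in ARV-825 treated cells, against 3.01, 4.05 and 3.01 FPKM in control cells, with 47.9% of its exon bases shared with *CAMK2G* (log2 fold change -0.39 ± 0.06). Both antisense RNAs fell further than their partner, and 26.0% of the exon bases of *MELTF-AS1* were shared.

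The members of highest level moved in both directions. *PRR11-AS1*, the highest by mean FPKM, had 11.97, 11.8 and 12.6 FPKM in ARV-825 treated cells, against 32.0, 24.6 and 25.005 FPKM in control cells, a log2 fold change of -1.10 ± 0.10. Its partner *PRR11*, a gene of the dividing cell, averaged 6.81 ± 0.67 FPKM in ARV-825 treated cells and 17.8 ± 1.0 FPKM in control cells, and 30.2% of the exon bases of *PRR11-AS1* were shared. The ratio of the pair overlapped between the groups. *FGD5-AS1* averaged 9.91 ± 0.86 FPKM in ARV-825 treated cells and 12.4 ± 0.1 FPKM in control cells (log2 fold change -0.30 ± 0.06), although *FGD5*, an exchange factor gene of the endothelium, was at most 0.127 FPKM.

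Increases among the abundant members were seen in *KLC1-AS1*, with 18.6, 21.5 and 22.6 FPKM in ARV-825 treated cells, against 6.32, 5.63 and 5.999 FPKM in control cells (log2 fold change 1.65 ± 0.08, no shared exon base), and *SLC9A3-AS1*, with 21.8, 20.6 and 20.6 FPKM in ARV-825 treated cells, against 6.55, 6.87 and 6.18 FPKM in control cells (log2 fold change 1.55 ± 0.05). Their partners are *KLC1*, encoding a kinesin light chain, and *SLC9A3*, encoding a sodium/proton exchanger. *KLC1* averaged 9.30 ± 0.25 FPKM in ARV-825 treated cells and 5.47 ± 0.25 FPKM in control cells, and *SLC9A3* 3.54 ± 0.27 and 1.15 ± 0.10 FPKM in these groups. Both antisense RNAs stood above their partner in every library. *NRSN2-AS1* averaged 19.2 ± 3.0 FPKM in ARV-825 treated cells and 7.93 ± 0.34 FPKM in control cells, with no shared exon base, and *MRPL20-AS1* 14.8 ± 1.6 and 9.87 ± 0.71 FPKM while the mitochondrial ribosome gene *MRPL20* was lower (log2 fold change -0.42 ± 0.04). *EPB41L4A-AS1* averaged 18.6 ± 1.5 FPKM in ARV-825 treated cells and 15.7 ± 0.2 FPKM in control cells, a log2 fold change of 0.23 ± 0.06 that turned to -0.07 after rescaling to TPM, and 49.6% of its exon bases were shared.

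Of 57 listed long non-coding RNAs with a described role in cancer or cell biology, not all of them with an antisense name, 21 were members. By the adjusted p 7 of the 21 were higher, 33.3% beside 37.0% of all genes, and 11 lower, 52.4% beside 40.2%. Past both thresholds 3 of the 21 were called in either direction, 14.3%. Of all genes 8.81% were higher and a further 12.1% lower, so the 14.3% lay below the sum of these shares. Apart from *LOXL1-AS1* and *PRKCQ-AS1* above, which were lower, only *NIFK-AS1* passed both thresholds, and it was higher. *NIFK-AS1* had 4.28 ± 0.18 FPKM in ARV-825 treated cells and 1.62 ± 0.24 FPKM in control cells (log2 fold change 1.01 ± 0.08). *OIP5-AS1*, also called cyrano and studied for binding microRNA in animal cells, had 5.28, 6.44 and 6.03 FPKM in ARV-825 treated cells, against 8.19, 8.54 and 8.36 FPKM in control cells (log2 fold change -0.44 ± 0.07). *OIP5*, a centromere protein gene, fell further, to 3.12 ± 0.31 FPKM in ARV-825 treated cells, against 8.33 ± 0.39 FPKM in control cells. By the adjusted p *MAPKAPK5-AS1* (-0.38), *MCM3AP-AS1* (-0.38) and *NNT-AS1* (-0.58) were lower on the log2 scale, and *PSMA3-AS1* (0.71), *ARRDC1-AS1* (0.54), *TP73-AS1* (0.52), *THAP9-AS1* (0.52), *LBX2-AS1* (0.44) and *ZNF667-AS1* (0.43) higher. These changes were all below the fold threshold, and *MAPKAPK5-AS1* and *LBX2-AS1* shared 34.6% and 31.2% of their exon bases.

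Partners with large changes did not always come with a changed antisense RNA. *HAS2*, the hyaluronan synthase gene, had 0.360, 0.302 and 0.342 FPKM in ARV-825 treated cells, against 8.33, 8.78 and 8.70 FPKM in control cells, a log2 fold change of -2.85 ± 0.05. *HAS2-AS1*, whose start lies 46 bases from that of *HAS2*, had 2.50, 2.49 and 2.55 FPKM in ARV-825 treated cells, against 2.98, 2.73 and 3.14 FPKM in control cells. Its log2 fold change of -0.17 ± 0.06 (limma adjusted p = 0.0341) was lost in 5 of 6 fits that left out a library, at up to 0.125 without control replicate 3. The ratio of *HAS2-AS1* to *HAS2* was accordingly 22.0 times as high in ARV-825 treated as in control cells. *CDKN2B-AS1*, also called ANRIL, had 0.915, 1.22 and 1.19 FPKM in ARV-825 treated cells, against 0.973, 0.927 and 1.01 FPKM in control cells, and the groups overlapped (log2 fold change 0.10 ± 0.09, limma adjusted p = 0.363). *CDKN2B*, which encodes an inhibitor of cyclin-dependent kinases, averaged 9.89 ± 0.55 FPKM in ARV-825 treated cells and 2.39 ± 0.17 FPKM in control cells. *ZEB1-AS1* averaged 1.99 ± 0.19 and 1.89 ± 0.19 FPKM in ARV-825 treated and control cells (limma adjusted p = 0.615), beside *ZEB1*, a repressor of epithelial genes, at 7.52 ± 0.48 and 11.1 ± 0.2 FPKM. *FOXD2-AS1* averaged 0.919 ± 0.222 and 1.18 ± 0.26 FPKM in ARV-825 treated and control cells (limma adjusted p = 0.236).

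Position and overlap separated the members only in part. Of 134 head-to-head members 32 were higher and 12 lower, 23.9% and 8.96%, with a median log2 fold change of 0.43. Members overlapping in another way had 25 higher and 6 lower, 20% and 4.80%, with a median of 0.46. Among all genes tested 8.81% were higher and 12.1% lower, with a median of -0.02. Of the 64 members that shared no exon base with the opposite strand 11 were higher and 8 lower, 17.2% and 12.5%, with a median of 0.20. Their lower share was close to that of all genes. The 205 that shared some had 46 higher and 11 lower, 22.4% and 5.37%, with a median of 0.46. The split between higher and lower members thus leaned less to increases where no exon base was shared, and this difference between the 64 and the 205 was not tested. The summed FPKM of the 64 was 186 to 194 in ARV-825 treated cells and 143 to 151 in control cells.

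A RefSeq promoter window of 300 bases (GRCh38.p14) was matched by symbol to 203 of the 269 members. A GC box on either strand was present in 60.6% of them, beside 45.0% of all 35116 promoters, and in 69.2% of the 107 head-to-head members. A TATA box (TATAAA) was found in 1.48%, beside 11.5% of all promoters. The CCAAT box was present in 31.5% beside 34.6%, an E-box (CACGTG) in 7.88% beside 7.26% and an ETS core (CCGGAAG) in 12.3% beside 10.3%, all searched on both strands. Median GC content was 64.0% beside 58.7%. The GC box was present in 57.4% of 47 members higher in ARV-825 treated cells and in 36.4% of 11 lower members, a difference that was not tested. The 35116 promoters were not filtered by level in these cells, while the members were, so the shares compare unlike sets. These matches are a description of the letters in the windows.

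The genes that degrade or end antisense transcripts were listed beside the members. Of 25 genes of the nuclear exosome, its adaptors and the cap-binding complex 14 were lower by the adjusted p (40.2% of all genes), 5 higher and 6 neither, with a median log2 fold change of -0.34 beside -0.02 for all genes. Past both thresholds lay *EXOSC8* and *EXOSC9*, subunits of the exosome ring, and *ZCCHC8*, a scaffold of the nuclear exosome targeting complex, which is 12% of the list and equals the share of all genes lower (12.1%). *EXOSC8* had 6.67, 6.82 and 7.08 FPKM in ARV-825 treated cells, against 21.0, 20.3 and 21.7 FPKM in control cells (log2 fold change -1.49 ± 0.04). *EXOSC9* had 3.06, 3.13 and 3.19 FPKM in ARV-825 treated cells, against 10.7, 10.4 and 9.85 FPKM in control cells (log2 fold change -1.45 ± 0.05). *ZCCHC8* had 1.53, 1.68 and 1.07 FPKM in ARV-825 treated cells, against 4.55, 4.81 and 4.74 FPKM in control cells (log2 fold change -1.24 ± 0.10). *MTREX*, the helicase that feeds RNA to the exosome, averaged 10.2 ± 0.5 FPKM in ARV-825 treated cells and 20.4 ± 0.3 FPKM in control cells. Of the catalytic subunits, *DIS3* was higher, at 8.12 ± 0.79 FPKM in ARV-825 treated cells and 6.13 ± 0.05 FPKM in control cells, and *EXOSC10* lower, at 7.61 ± 0.24 FPKM in ARV-825 treated cells and 12.6 ± 0.1 FPKM in control cells. Of 15 Integrator genes 6 were higher by the adjusted p, 6 lower and 3 neither, close to the 37.0% and 40.2% of all genes, with a median log2 fold change of 0.00, and *INTS5* alone passed both thresholds, at 34.2 ± 2.3 FPKM in ARV-825 treated cells and 16.5 ± 0.6 FPKM in control cells. Whether these levels bear on the antisense RNAs was not tested.

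**Figure D5:**
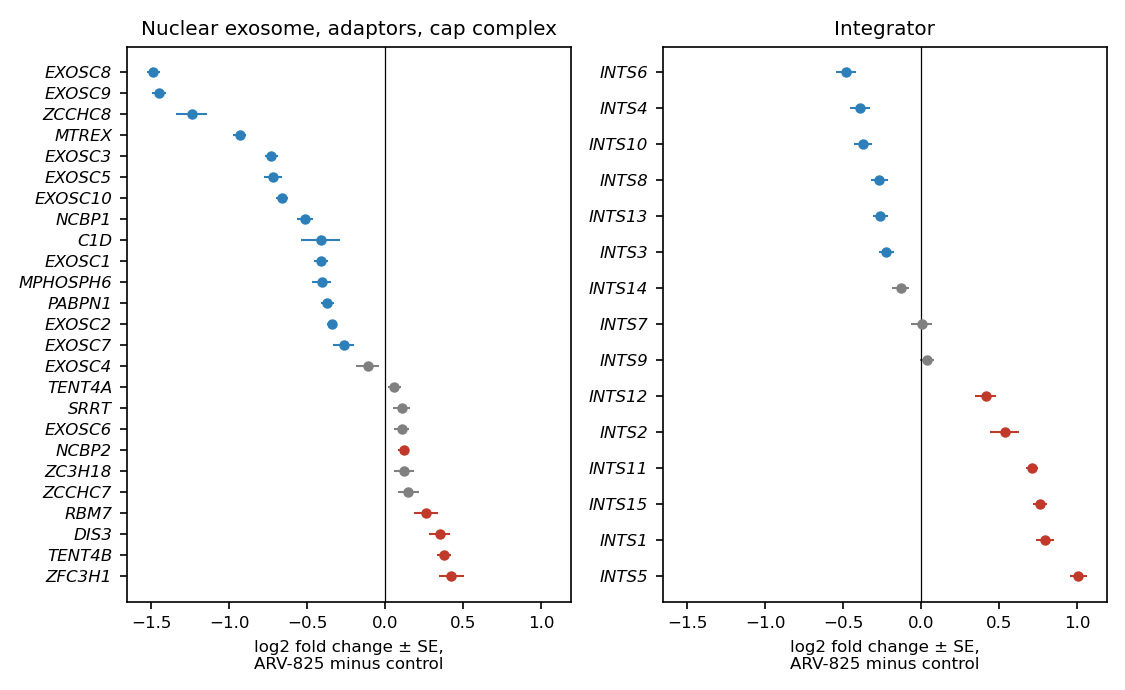
Log2 fold change (ARV-825 minus control, on log2(FPKM + 1), with its standard error) of 25 genes of the nuclear exosome, its adaptors and the cap complex (left) and 15 Integrator genes (right). Red marks genes higher and blue genes lower in ARV-825 treated cells at a limma adjusted p below 0.05, and grey the others; *EXOSC8* at -1.49 and *INTS5* at 1.01 are the ends.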

How the data were processed

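The libraries were made from total RNA with a TruSeq kit, and the authors deposited FPKM values per gene and library. Alignment is credited to HISAT2 2.0.5 with build mm10 in the submitters' notes, although all identifiers are human. The counting tool and annotation are not given in the sources read for this work. Fragment numbers were recovered from FPKM and GENCODE 29 exon lengths (100% within 0.05 of a whole number). No source says that the replicates are separate cultures, and the p-values cover only the spread between libraries, which may be technical.

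The 13442 genes with a mean of at least 1 FPKM were tested on log2(FPKM + 1) with limma 3.58.1 in R 4.3.3 (lmFit, eBayes with trend), checked on simulated data, with Benjamini-Hochberg adjustment over all of them. The thresholds were a log2 fold change of 1 in either direction and an adjusted p of 0.05. Symbols came from the reference gene tables (58207 of 58735 rows). Tables and motif searches were made in Python 3.11.15.

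The members and gene lists were chosen with earlier results of these data known. Named were the 12 largest increases and decreases, the 8 of highest mean, pairs past both thresholds in opposite directions or (up to 6) the same direction, the 3 just inside and outside the level threshold, and 57 listed genes with a described role where measured. *HOXD3* and *HEXIM1* were added because they share exon bases with a member, and *DIS3* and *EXOSC10* after their values were seen. Alternatives were other pseudocounts, filters and scalings, limma-voom on recovered fragments, a replicate block and leaving out each library.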

Additional observations from a re-analysis of the deposited data

How the results depend on the processing

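In the setting that kept genes with a mean of at least 1 FPKM in each group, 28 antisense RNAs were higher and 7 lower (86 and 40 at the adjusted p alone), and 673 of all genes were higher. With a pseudocount of 0.01 the antisense counts were 101 higher and 31 lower, with 1779 of all genes and 24 partners higher, and with 0.1 they were 95 higher and 30 lower, with 23 partners higher. Limma-voom on recovered fragments gave 92 higher and 36 lower antisense RNAs, 2536 of all genes lower and 32 partners lower. Rescaling to TPM gave 40 antisense RNAs, 2978 of all genes and 43 partners lower and 7 exosome and Integrator genes past both thresholds instead of 4, and *EPB41L4A-AS1* turned to -0.07. Over all genes the median change was -0.31 under TPM, -0.09 under fragment totals and -0.10 under limma-voom. The 64 members with no shared exon base gave 11 higher and 8 lower, 17.2% and 12.5% beside 8.81% and 12.1% of all genes. Instead of 155, 43 of 67 pairs (64.2%) had the same sign when pairs with shared exon bases were left out and 86 of 143 (60.1%) when both groups had to average at least 1 FPKM, and under TPM the share was 58.2% of 232, against 66.8%.

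When each library was left out in turn, 53 to 59 antisense RNAs were higher and 17 to 20 lower (147 to 150 and 55 to 62 at the adjusted p alone), 1172 to 1200 of all genes higher and 1613 to 1676 lower, 14 partners higher in each fit and 18 to 20 lower, 152 to 157 pairs had the same sign and 3 to 4 exosome and Integrator genes passed. With the replicate number as a block, 57 antisense RNAs were higher and 19 lower (154 and 64 at the adjusted p alone), with 1191 and 1634 of all genes. Deviations of same-numbered libraries correlated at 0.00, 0.04 and 0.04, and those of differently numbered libraries at -0.04 to 0.00. Such low values cannot decide whether the numbers pair the samples. For 54 named antisense genes, alternative values were compared by direction and by the adjusted p alone, so crossings of the fold threshold were not counted. Of 948 such values, 930 kept their direction and their side of the adjusted p threshold. The adjusted p call was lost in 15 values of 4 genes and gained in 2 of *EMC1-AS1*, and 1 value changed sign. The causes were not tested. Members rested on a median of 46 fragments in the lowest ARV-825 library and 39 in the lowest control library, and counting error limits those with few.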
